A study of Mus musculus with 2 samples.

Results

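The cells described here are border-associated macrophages of the ventral parafacial region, a strip of the mouse brainstem at the ventral surface of the medulla. They were selected on UMI counts (unique molecular identifiers, each standing for 1 captured transcript): a cell needed at least 4 UMIs in sum of Mrc1, Pf4, Cd163 and Ms4a7 and at least 3 of C1qa, C1qb, C1qc and Csf1r. It could have at most 1 UMI of the endothelial genes Cldn5 and Flt1, at most 1 of the myelin genes Mog and Mag, and 0 of the neuronal genes Slc32a1 and Slc17a6. Of 12395 cells that passed the quality limits, 62 met this rule, 26 of 3345 untreated cells and 36 of 9050 cells with 4OH-tamoxifen. The untreated library was made from wild-type C57BL/6J pups at postnatal day 10, and the 4OH-tamoxifen library from mice of the same strain and age that received 0.2 mg of 4OH-tamoxifen daily for 3 days. Each library pooled 8 mice (4 male and 4 female) and carried no transgene, and the untreated library is batch 1 and the other batch 2. With 1 library per condition there is no replicate, so the intervals given are 95% intervals that cover counting error only, no test between conditions was possible, and treatment cannot be told apart from batch, the pool of mice and depth.

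Border-associated macrophages live at the interfaces of the brain, in the leptomeninges, the perivascular spaces and the choroid plexus, outside the parenchyma that microglia occupy. They take up proteins, lipids and debris through scavenger and lectin receptors such as the mannose receptor (Mrc1) and the hemoglobin-haptoglobin receptor (Cd163), and they share the receptor Csf1r and the C1q genes with microglia. Pf4 encodes platelet factor 4, a CXC chemokine, and Ms4a7 a membrane protein of the MS4A family.

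Because Pf4 was the marker gene with the most UMIs and F13a1 the gene outside the rule that set these cells furthest apart from microglia, the sequence at the start of each is shown (RefSeq, GRCm38.p6, 5′ to 3′ on the strand of the gene). Pf4 is at chr5:90772435-90773383 on the plus strand and F13a1 at chr13:36867178-37050244 on the minus strand in the GENCODE annotation. The stretch of Pf4 is chr5:90772185-90772434 and ends at the start site, and that of F13a1 is chr13:37049184-37049463, at the downstream one of its 2 listed start sites. Capitals mark GAGGAAGT or its reverse complement ACTTCCTC, the type of sequence that the myeloid factor PU.1 (Spi1) is known to bind.
Pf4: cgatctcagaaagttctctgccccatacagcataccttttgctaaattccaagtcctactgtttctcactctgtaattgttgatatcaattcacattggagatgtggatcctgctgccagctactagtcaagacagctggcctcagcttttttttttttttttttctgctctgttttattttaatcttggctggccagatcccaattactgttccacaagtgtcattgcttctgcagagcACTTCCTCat
F13a1: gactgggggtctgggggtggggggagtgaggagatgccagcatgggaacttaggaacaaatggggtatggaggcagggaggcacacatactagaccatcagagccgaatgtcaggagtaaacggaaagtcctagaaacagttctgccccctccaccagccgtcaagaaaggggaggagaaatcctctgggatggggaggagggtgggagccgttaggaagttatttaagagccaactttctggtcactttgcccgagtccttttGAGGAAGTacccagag
Over both strands, 3.20% of 32851 promoter windows of 300 bases held these letters, and 3.69% of 27025 genes had such a window. Among the other rule genes (Mrc1, Cd163 and Ms4a7) no window held them. Of the 15 genes that were highest in the macrophages relative to microglia, 10 had a window and only F13a1 held the sequence, and of the 15 that were lowest, 8 had a window and 0 held it. A match is a description of letters and not of a bound site.

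The libraries hold 3767 and 10241 barcodes with 18496942 and 34704167 UMIs, and 40 barcode sequences occur in both, 1 of them on a macrophage. The median depth of the untreated macrophages was 4455.5 UMIs (1926 to 8711) with 1729 genes, and that of the 4OH-tamoxifen macrophages 2456 UMIs (1422 to 4977) with 1147.5 genes, so all of the macrophage data rest on 118777 and 91861 UMIs. Scrublet, a doublet caller, marked 6 barcodes (0.159%) in the untreated library and 544 (5.31%) in the other, among them 0 and 1 of the macrophages. Whether the low share in the untreated library reflects few doublets or missed ones was not tested, and marked barcodes were kept in both. The mice of both sexes contributed: 12 untreated and 12 4OH-tamoxifen macrophages had UMIs of Xist without a Y-linked gene, 6 and 4 had a Y-linked gene without Xist, and 1 in each library had both.

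The macrophages were a rare population. They made up 0.777% (0.508 to 1.14) of filtered cells in the untreated library and 0.398% (0.279 to 0.550) in the 4OH-tamoxifen library, and these intervals overlap only between 0.508 and 0.550. Taken over the cells with C1q and Csf1r that met the remaining limits, the share was 6.75% (26 of 385, 4.46 to 9.74) and 4.80% (36 of 750, 3.38 to 6.58), and the intervals overlap between 4.46 and 6.58. Microglia were 10.6% and 7.87% of filtered cells. A share of cells in a dissociated suspension depends on which cells were recovered, and how far recovery differed between the libraries was not tested.

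The marker sum that chose the cells was close to bimodal. In the untreated library 352 of 385 C1q and Csf1r cells had 0 UMIs of the 4 markers, 4 had 1, 2 had 2 and 1 had 3. Just inside the limit, 1 untreated cell had 4 UMIs and 1 had 5, and 24 had 10 or more, up to 85. In the 4OH-tamoxifen library 705 of 750 had 0 UMIs, 7 had 1, 2 had 2 and 0 had 3. Inside the limit there, 1 cell had 4, 1 had 5, 1 had 6, 1 had 7 and 3 had 9, while 29 had 10 or more, up to 45. Few cells therefore lay near the limit in either library.

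Of the rule markers, which are given as a description since they chose the cells, Pf4 was in every macrophage. It had 718 UMIs in the 26 untreated cells (1 to 73 per cell, 6045 CPM) and 516 UMIs in the 36 4OH-tamoxifen cells (3 to 36 per cell, 5617 CPM), where CPM is UMIs of a gene per 1000000 UMIs summed over the cells of a group. Mrc1 had 122 UMIs in 25 untreated cells (1027 CPM) and 76 UMIs in 30 4OH-tamoxifen cells (827 CPM). Cd163 was found in 13 of 26 and 16 of 36 cells (227 and 229 CPM), and Ms4a7 in 16 of 26 and 28 of 36 (320 and 599 CPM). The 4 genes were seen together in 8 untreated and 11 4OH-tamoxifen cells, 3 of them in 12 and 18, and 2 of them in 6 and 5, while 2 4OH-tamoxifen cells showed only Pf4. Both Cd163 and Ms4a7 were seen in 8 untreated and 13 4OH-tamoxifen macrophages.

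The label was checked with markers of other cell types. The 10 border-associated macrophage markers outside the rule summed to 6112 CPM in the untreated macrophages and to 5062 CPM in those given 4OH-tamoxifen, against 327 and 284 CPM in microglia. The 11 microglia markers, Cx3cr1 and Sparc included, summed to 1692 and 1426 CPM in the macrophages and 16163 and 9763 CPM in microglia. Of the 8 monocyte and neutrophil markers, 7 were at 0 in each library (Ccr2 among them), and all 6 dendritic cell markers and all 4 lymphocyte and mast cell markers were at 0. The choroid plexus gene Ttr was at 0 UMIs in all 62 cells. Fibroblast markers summed to 918 and 21.8 CPM in the macrophages against 257 and 115 CPM in microglia, and pericyte markers to 631 and 43.5 CPM against 152 and 79.3 CPM, and 2 untreated cells described further on held 131 and 46 of these UMIs.

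Microglia served as the comparison in each library, defined by the same C1q and Csf1r minimum and exclusions but at most 1 UMI of the 4 markers (356 untreated and 712 4OH-tamoxifen cells). Their depth was near that of the macrophages, with medians of 3884 and 2377.5 UMIs. Sums of 5 genes on each side, all outside the rule, set the groups apart cell by cell. Summed over F13a1, Cbr2, Lyve1, Dab2 and Folr2, the untreated macrophages had a median of 14.5 UMIs (1 to 49) and the 4OH-tamoxifen macrophages 6.5 (0 to 18), while no microglial cell had more than 2. Summed over the microglial genes Tmem119, P2ry12, Siglech, Olfml3 and Gpr34, the macrophages had medians of 1 and 0 UMIs and the microglia 21 and 6. The macrophage genes exceeded the microglial genes in 25 of 26 and 35 of 36 macrophages. These genes were picked with their values known, so the plot is a description.

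**Figure D1:**
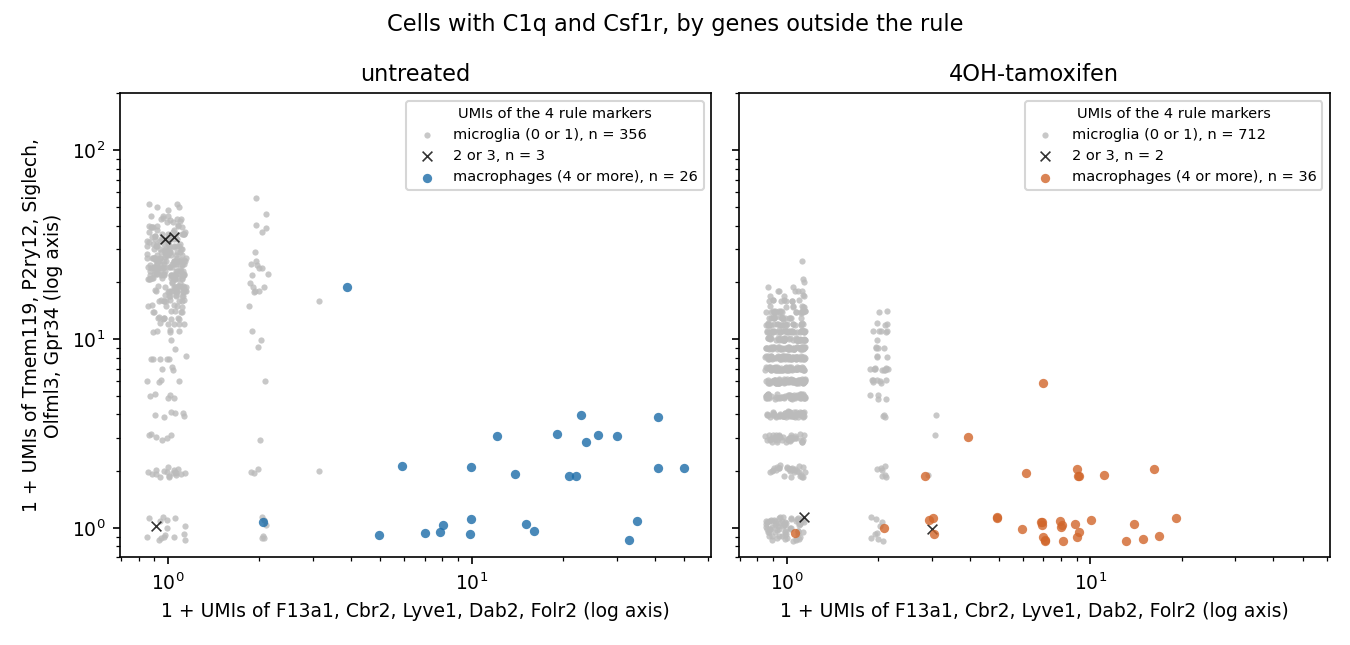
Each point is a cell with C1q and Csf1r UMIs; the x axis gives 1 plus the UMIs of 5 macrophage genes outside the rule and the y axis 1 plus the UMIs of 5 microglial genes, both on log axes with small jitter, for the untreated (left) and 4OH-tamoxifen (right) library. The coloured macrophages lie to the lower right, apart from 1 untreated cell in which the microglial genes had more UMIs and 1 4OH-tamoxifen cell in which both sums were equal, and the grey microglia stay at 2 or fewer UMIs of the macrophage genes.

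A gene was counted as higher or lower when its CPM differed at least 2-fold in the same direction in both libraries, provided that it reached 100 CPM in the group where it was higher. Rule genes were left out. By this count 80 of 1063 genes (7.53%) were higher in the macrophages and 97 of 1178 (8.23%) were higher in microglia. The median log2 ratio over all 1366 genes was 0.01 (untreated) and 0.0032 (4OH-tamoxifen). Since the cells were chosen by 4 genes that separate these 2 groups, the counts describe the contrast and no test was made of it.

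The genes furthest above microglia were F13a1, Cbr2, Lyve1, Clec4n, Cd209f, Cfp, Cd36, Fcna, Dab2, Ccl24, Folr2, Lilrb4a, Ccl7, Dse and Ms4a6c, in the order of the smaller of the 2 ratios. F13a1, the A subunit of coagulation factor XIII, had 100 UMIs in 23 of 26 untreated macrophages and 45 UMIs in 23 of 36 with 4OH-tamoxifen. Its CPM was 842 (685 to 1024) and 490 (357 to 655), against 0.682 in untreated microglia and 0 UMIs in 4OH-tamoxifen microglia, which makes it at least 307-fold higher in the latter library. Cbr2, a carbonyl reductase, was at 817 CPM (662 to 996) in 20 of 26 and 414 CPM (293 to 568) in 22 of 36 macrophages, and in 0.281% and 0.702% of microglia.

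Dab2, an endocytic adaptor, was in more cells than any other of these 15 genes in each library. It was in 26 of 26 untreated macrophages with up to 19 UMIs per cell and in 32 of 36 4OH-tamoxifen macrophages with up to 15, at 1212 CPM (1022 to 1427) and 1524 CPM (1282 to 1798). In microglia it was at 19.1 and 28.2 CPM, a ratio of 63.5 (42.1 to 98.9) and 54.0 (39.1 to 75.5). Dse, a dermatan sulfate epimerase, was 26.2-fold (10.7 to 70.2) and 20.4-fold (7.64 to 54.7) above microglia.

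**Figure D2:**
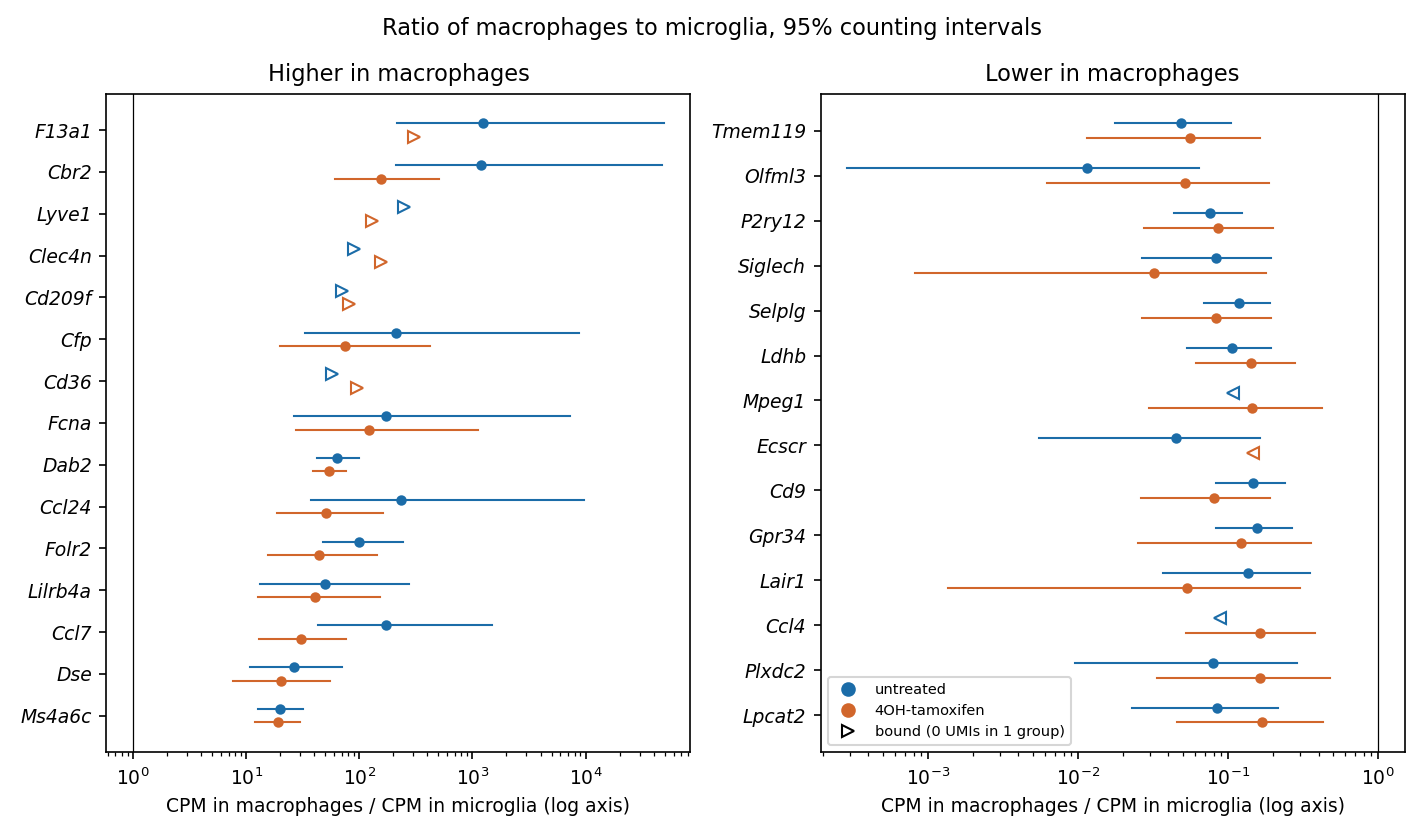
CPM in macrophages divided by CPM in microglia of the same library (log axis) for the 15 genes with the largest ratio and 14 of the 15 with the smallest; points are ratios with 95% counting intervals, open triangles are bounds where 1 group had 0 UMIs, blue is untreated and orange 4OH-tamoxifen. Ratios on the left run from 19.02 for Ms4a6c up to 1235 for F13a1, and all ratios on the right lie under 0.2.

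Scavenger and lectin receptors bind and internalize ligands. Of 20 list genes in the files outside the rule, 8 passed the level limit in macrophages and 6 of these were called higher (7.53% over all genes), and 0 of the 3 that passed it in microglia were called lower (8.23% over all genes). Lyve1, a hyaluronan receptor, had 60 UMIs in 14 of 26 untreated macrophages (505 CPM, 385 to 650) and 19 UMIs in 12 of 36 4OH-tamoxifen macrophages (207 CPM, 125 to 323), and 0 UMIs in 1068 microglia. Stab1, which clears modified lipoproteins, was in 23 of 26 and 32 of 36 cells at 892 and 1067 CPM, or 12.1-fold (9.18 to 15.99) and 15.8-fold (11.99 to 20.7) above microglia.

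Folr2, a folate receptor, had 65 UMIs in 13 untreated cells and 13 UMIs in 9 4OH-tamoxifen cells (547 and 142 CPM). It was in 8.63% and 5.51% of oligodendrocytes, and the part of free RNA in its low counts was not tested. Clec4n, a C-type lectin, had 22 and 23 UMIs in 15 and 12 macrophages and 0 in microglia, at least 90.5-fold and 157-fold higher. With microglia set to 3 UMIs where they had fewer, such log2 ratios fell in cells thinned to 2000 UMIs, from 6.50 to 3.79 for Clec4n and from 5.85 to 3.79 for Fcna in the untreated library, and from 6.35 to 4.28 for Cd209f with 4OH-tamoxifen. Cd36, a lipid receptor, had 14 UMIs in each library and was likewise at 0 UMIs in microglia. The galactose lectins Clec10a (15 and 9 UMIs) and Mgl2 (24 and 8 UMIs) were found in 9 and 8 and in 9 and 7 cells. Cd209f was uneven, with 17 UMIs in 4 untreated cells and 12 UMIs in 3 4OH-tamoxifen cells. Cd209f, Ms4a6b and Ms4a6c belong to families of near-identical copies whose reads may be split between members.

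Not every uptake receptor was higher. Cd68, a lysosomal membrane protein of phagocytes, was at 463 and 348 CPM in macrophages and 501 and 397 CPM in microglia, and Lrp1, an endocytic receptor, was at 101 and 152 CPM against 241 and 301 CPM. Msr1 and Colec12 were below the level limit but were seen in 7 and 5 and in 6 and 5 macrophages, and in 1.12% or fewer of microglia. Vsig4 and Cd5l, which mark macrophages of other organs, were at 0 UMIs in all 62 cells.

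Among the receptors for antibodies, 2 of 4 genes passing the limit were called higher (7.53% over all genes). The neonatal Fc receptor Fcgrt was at 665 and 577 CPM against 89.3 and 69.8 CPM in microglia, and the inhibitory receptor Fcgr2b at 312 and 196 CPM against 70.9 and 53.8 CPM. Fcgr3 was at nearly the same level as in microglia (ratios of 1.13, 0.905 to 1.40, and 1.01, 0.763 to 1.31), and the signalling chain Fcer1g at 1.61 and 1.38 times.

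Of the complement genes, C1qa, C1qb and C1qc were abundant in the macrophages but somewhat below microglia, and C1q was used in the rule. C1qa was at 3949 and 3026 CPM against 5274 and 3844 CPM. Properdin (Cfp), which stabilizes the alternative pathway convertase, was in 12 and 9 macrophages at 143 and 120 CPM and in 0.421% or fewer of microglia. The C5a receptor C5ar1 was 5.42-fold (3.24 to 8.81) and 7.59-fold (3.69 to 14.7) higher. Itgam, the integrin chain of complement receptor 3, was lower, with 3 UMIs in each library against 216 and 162 CPM in microglia. Fcna, a ficolin of the lectin pathway, was in 9 and 7 macrophages at 118 and 131 CPM and in 0.281% of microglia in each library.

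Chemokines, which attract leukocytes, split into genes above and genes below microglia. Of 6 list genes passing the limit, 5 were called higher (7.53% over all genes). Of 4 passing it in microglia, 2 were lower (8.23% over all genes). Ccl12, a CC chemokine, was found in 18 of 26 untreated macrophages with up to 32 UMIs in a cell and in 22 of 36 4OH-tamoxifen macrophages with up to 30. Its level was 1355 CPM (1154 to 1582) and 1230 CPM (1014 to 1479), or 7.36-fold and 8.75-fold above microglia. Ccl7, another monocyte attractant, was at 236 and 163 CPM in 12 and 9 cells and in under 1% of microglia. Ccl24, an eosinophil attractant, was in 9 and 10 macrophages at 160 and 163 CPM. Ccl2 was 7.72-fold and 3.49-fold higher, and the neutrophil attractant Cxcl2 9.43-fold (6.16 to 14.3) and 7.70-fold (4.71 to 12.3) higher, although Cxcl2 came from 11 and 6 cells. Ccl7 and Ccl12 were seen together in 8 untreated and 7 4OH-tamoxifen cells, and at these low counts a cell without a UMI of Ccl7 may still express it.

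Ccl3 and Ccl4 ran the other way. Ccl4, which microglia are known to express, had 0 UMIs without treatment and 5 UMIs with 4OH-tamoxifen, against 286 and 337 CPM in microglia, so it was at least 11.3-fold lower in the former and 6.18-fold lower in the latter. Ccl3 was at 152 and 54.4 CPM against 310 and 305 CPM. Ccl6 and Ccl9 lay above microglia in the untreated library, at 5.46 (3.97 to 7.43) and 3.51 (2.54 to 4.77) times, and at 0.337 (0.0689 to 1.0005) and 0.317 (0.0380 to 1.17) times with 4OH-tamoxifen, where the intervals reach 1. Il1b, Il6 and Il10 had 0 UMIs in both libraries, and Tnf had 2 and 1.

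Growth factor and iron genes held further members above microglia. Of 5 growth factor genes passing the limit, 4 were called higher (7.53% over all genes). They were Igf1 at 194 and 283 CPM and the insulin-like growth factor binding protein Igfbp4 at 615 and 621 CPM. The others were the TAM receptor ligand Gas6 at 488 and 316 CPM and the semaphorin co-receptor Nrp1 at 345 and 359 CPM. Igf1 was 11.4-fold (6.16 to 20.9) and 8.44-fold (5.13 to 13.5) and Igfbp4 8.27-fold and 11.8-fold above microglia. Of 5 iron and heme genes, 3 were called higher (7.53% over all genes). Blvrb, a biliverdin reductase, was at 539 and 457 CPM (6.08-fold and 6.98-fold), the iron exporter Slc40a1 at 202 and 142 CPM (3.57-fold and 3.05-fold) and Blvra 2.13-fold and 3.92-fold higher. The ferritin chains Ftl1 and Fth1 were 1.63-fold to 1.73-fold above microglia. Heme oxygenase (Hmox1) was 5.87-fold (3.21 to 10.4) above microglia without treatment and 1.25-fold (0.250 to 3.88) with 4OH-tamoxifen.

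Of the lysosomal genes, all 15 passed the limit in both groups. Of these, 2 were called higher, against 7.53% over all genes, and 7 lower, against 8.23%. Ctsc, a dipeptidyl peptidase, was at 606 and 533 CPM against 113 and 118 CPM in microglia. The proteases Ctsd, Ctss, Ctsl, Ctsz and Lgmn and the protease inhibitor Cst3 were among those lower. Ctsd was at 791 and 827 CPM against 5348 and 4283 CPM (6.76-fold and 5.18-fold lower), Ctss at 556 and 327 CPM against 3267 and 2293 CPM, and Cst3 at 6087 and 6412 CPM against 27211 and 18662 CPM. Ctsb, Lamp1 and Hexa lay within 1.44 times of microglia in both libraries. Apoe, which carries lipid between cells, was at 21056 and 16264 CPM, or 2.14-fold and 1.55-fold above microglia, and it was in over 97% of oligodendrocytes as well. Plin2, a coat protein of lipid droplets, was 2.14-fold and 2.35-fold higher.

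Transcription factors were mostly at low counts. Maf, a factor of tissue macrophages, was the 1 gene of 5 called higher (7.53% over all genes). It was in 24 of 26 and 32 of 36 cells at 943 and 1023 CPM (4.14-fold, 3.31 to 5.14, and 5.64-fold, 4.44 to 7.10). Irf8, a factor of the myeloid lineage, was among the 3 of 10 called lower (8.23% over all genes). It was at 109 and 43.5 CPM against 261 and 216 CPM. Spi1, which encodes PU.1, was at 429 and 381 CPM against 436 and 334 CPM in microglia, and Mef2c at 0.924 and 0.961 times the microglial level. Sall1, a factor that defines microglia, had 1 UMI among untreated macrophages and 0 with 4OH-tamoxifen.

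Among the 15 genes lowest relative to microglia were Tmem119, Olfml3, P2ry12, Siglech, Selplg, Ldhb, Mpeg1, Ecscr, Cd9, Gpr34, Lair1, Ccl4, Plxdc2 and Lpcat2. All 10 microglia markers that passed the level limit in microglia were called lower (8.23% over all genes). Tmem119, a surface protein of microglia, had 6 UMIs, all in 1 untreated macrophage, and 3 UMIs in 2 4OH-tamoxifen macrophages, against 1049 and 584 CPM in microglia. P2ry12, a purinergic receptor, was 13.2-fold and 11.8-fold lower, and 8 of its 16 untreated UMIs were in 1 cell that also held fibroblast and pericyte UMIs. Without the 2 untreated cells of that kind, which are described further on, the log2 ratio of P2ry12 went from -3.72 to -4.61, and that of Selplg from -3.08 to -4.06. With a limit of 3 marker UMIs in place of 4, the untreated log2 ratios moved the other way, to -2.30 for Selplg and from -4.38 to -3.04 for Tmem119. The fractalkine receptor Cx3cr1 had a UMI in 14 of 26 and 21 of 36 macrophages, against 4.14% and 2.81% of oligodendrocytes at median depths of 9083.5 and 6126 UMIs. Its level in the macrophages was 345 CPM (248 to 468) and 414 CPM (293 to 568), against 1239 and 1082 CPM. The TGF-beta receptor Tgfbr1 was 5.62-fold and 8.35-fold lower, while Tgfbr2 was at 92.6 and 98.0 CPM against 66.1 and 47.9 CPM.

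Of the remaining lists, interferon-responsive genes had 3 of 3 genes called higher (7.53% over all genes): Ifitm3, Ifi27l2a and Bst2. Ifi27l2a was at 505 and 1034 CPM against 34.8 and 89.5 CPM in microglia. Other interferon genes were low, with 3 and 6 UMIs of Isg15. In the MS4A family outside the rule, Ms4a6b and Ms4a6c were called higher, the latter at 463 and 435 CPM against 23.2 and 22.9 CPM. Of 11 immediate-early and stress genes passing the limit in microglia, 5 were called lower in macrophages (8.23% over all genes). Among these 5 were Junb, Nfkbia and Ier2, while Fos was at 766 and 468 CPM against 711 and 380 CPM. Estrogen receptor genes, listed since 4OH-tamoxifen binds these receptors, were almost unseen: Esr1 had 2 UMIs among untreated macrophages and 0 with 4OH-tamoxifen, and Esr2 had 0 in both. Among glucocorticoid-responsive genes Sgk1 was called lower and Tsc22d3 was 3.11-fold and 1.54-fold higher.

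Lyve1 and MHC class II are commonly used to divide border-associated macrophages, so the share of cells with each was counted. Lyve1 was in 53.8% (33.4 to 73.4) of untreated and 33.3% (18.6 to 51.0) of 4OH-tamoxifen macrophages, in 0 of 356 and 0 of 712 microglia (which, read as at most 3 cells, allows up to 0.843% and 0.421% of cells with a UMI), and in 1 of 556 and 0 of 1814 oligodendrocytes. With each cell thinned to 2000 UMIs, which left 25 and 26 macrophages, the shares were 48.0% and 30.8%. The intervals of the libraries overlap. Lyve1 was seen with Folr2 in 9 and 4 cells, with Cd163 in 8 and 5 cells and with Cd74 in 5 and 4. Whether these counts differ from those that each gene's own share of cells would give was not tested.

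No macrophage had a UMI of the MHC class II chains H2-Aa, H2-Ab1 or H2-Eb1 or of their regulator Ciita. A count of 0, read as at most 3 cells, allows up to 11.5% of untreated and 8.33% of 4OH-tamoxifen macrophages with a UMI, which at this depth is no limit on cells that express these genes. The share of cells was counted over H2-Aa, H2-Ab1, H2-Eb1 and the invariant chain Cd74, so every UMI behind it came from Cd74, with 14 UMIs in 10 untreated macrophages and 8 UMIs in 7 with 4OH-tamoxifen. The shares of cells were thus 38.5% (20.2 to 59.4) and 19.4% (8.19 to 36.02), against 14.6% and 13.6% of microglia and 2.70% and 1.32% of oligodendrocytes. In cells thinned to 2000 UMIs they were 16% and 15.4%, and in microglia 6.96% and 12.1%. The peptide-loading chain H2-DMa was 5.16-fold and 6.87-fold lower than in microglia, on 3 and 2 UMIs (95% interval of the macrophage to microglia ratio 0.0396 to 0.575 and 0.0175 to 0.530).

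Cycling cells, taken as those with a UMI of Mki67, Top2a or Cenpf, were 4 of 26 untreated macrophages (15.4%, 4.36 to 34.9) and 3 of 36 4OH-tamoxifen macrophages (8.33%, 1.75 to 22.5). In microglia the shares were 7.58% and 13.9%, and in the deeper oligodendrocytes, read as the level of free RNA, 10.1% and 9.15%. Thinned to 2000 UMIs, the macrophage shares were 8% and 7.69% and the oligodendrocyte shares 2.56% and 3.42%. With at least 2 UMIs required, 2 untreated and 3 4OH-tamoxifen macrophages remained. The shares were thus not separable from those of microglia at this number of cells.

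Between the libraries, 188 of 1408 genes (13.4%) were at least 2-fold higher in untreated and 191 of 1358 (14.1%) at least 2-fold higher in 4OH-tamoxifen macrophages, counting genes that reached 100 CPM on the higher side. For the rule genes, whose UMIs chose the cells in both libraries and which therefore say nothing of likeness between them, the untreated to 4OH-tamoxifen ratio was 1.08 for Pf4, 1.24 for Mrc1, 0.994 for Cd163 and 0.534 for Ms4a7. Outside the rule, the interval held 1 for Dab2 at 0.795 (0.626 to 1.01), Stab1 at 0.837 (0.630 to 1.11) and Maf at 0.921 (0.694 to 1.23). It left out 1 for F13a1 at 1.72 (1.20 to 2.50), Cbr2 at 1.97 (1.34 to 2.95) and Lyve1 at 2.44 (1.44 to 4.33), all higher in the untreated macrophages. With cells thinned to 2000 UMIs the interval still left out 1 for Lyve1 (2.16, 1.08 to 4.56), but it held 1 for F13a1 (1.56, 0.905 to 2.73) and Cbr2 (1.37, 0.819 to 2.33).

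The genes furthest above the 4OH-tamoxifen macrophages in the untreated ones, among those whose interval leaves out 1, were Ccl6, Ccl9, Col1a1, Klf2, Vtn, Col3a1, Rgs5 and Col1a2. Ccl6, a CC chemokine, had 61 UMIs in 9 of 26 untreated macrophages, with up to 22 in a cell, and 3 UMIs in 3 of 36 4OH-tamoxifen macrophages. The ratio was 15.7 (5.13 to 78.4), while in microglia it was 0.971 (0.772 to 1.22). Ccl9, its neighbour on chromosome 11, had 54 UMIs in 10 untreated macrophages, 27 of them in 1 cell, and 2 UMIs in 2 with 4OH-tamoxifen, a ratio of 20.9 (5.51 to 177) against 1.89 in microglia. Klf2, a Kruppel-like transcription factor, had 57 UMIs in 13 cells, 22 of them in 1 cell, and 4 UMIs in 4 cells, a ratio of 11.02 (4.08 to 41.8) against 1.63 (1.37 to 1.95) in microglia.

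Further list genes were also higher in the untreated macrophages. Lysozyme (Lyz2) had 418 UMIs in 23 of 26 untreated macrophages, with up to 86 in a cell, and 71 UMIs in 23 of 36 4OH-tamoxifen macrophages, with at most 7. Its level was 3519 CPM (3190 to 3873) and 773 CPM (604 to 975), a ratio of 4.55 (3.53 to 5.94) that was 1.02 (0.882 to 1.17) in microglia. Ifitm3, an interferon-induced membrane protein, was 3.33 times (2.27 to 5.02) and Folr2 3.87 times (2.11 to 7.65) as high in the untreated macrophages, against 1.07 and 1.71 times in microglia. Timd4, a receptor for phosphatidylserine on resident macrophages, had 12 UMIs in 8 untreated cells and 0 UMIs in the 4OH-tamoxifen cells, so it was at least 3.09-fold higher. In cells thinned to 2000 UMIs it had 4 and 0 UMIs, at least 1.39-fold.

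These UMIs sat in the same untreated cells. The 10 untreated macrophages with the most Lyz2 (14 or more UMIs, a division made after the values were seen) held all 61 UMIs of Ccl6, 50 of 54 of Ccl9, 48 of 57 of Klf2, 119 of 142 of Ifitm3 and 51 of 65 of Folr2. They held 232 of 718 UMIs of Pf4 and 42 of 122 of Mrc1, or 32.3% and 34.4%. Their median depth was 5189.5 UMIs against 4035.5 in the other 16. Both Ccl6 and Ccl9 were found in 7 untreated cells and in 1 4OH-tamoxifen cell. No 4OH-tamoxifen macrophage had 2 or more UMIs of either gene. With all cells thinned to 2000 UMIs, Lyz2 had 146 and 30 UMIs (ratio 5.06, 3.40 to 7.77), Ccl9 22 and 1, Klf2 28 and 1, and Ccl6 17 and 0. In oligodendrocytes, taken as the level of free RNA, Ccl6 was in 1.08% and 0.165% of cells and Lyz2 in 1.62% and 0.992%. The monocyte markers Ccr2, Ly6c2, S100a8 and S100a9 were at 0 UMIs in both libraries.

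**Figure D3:**
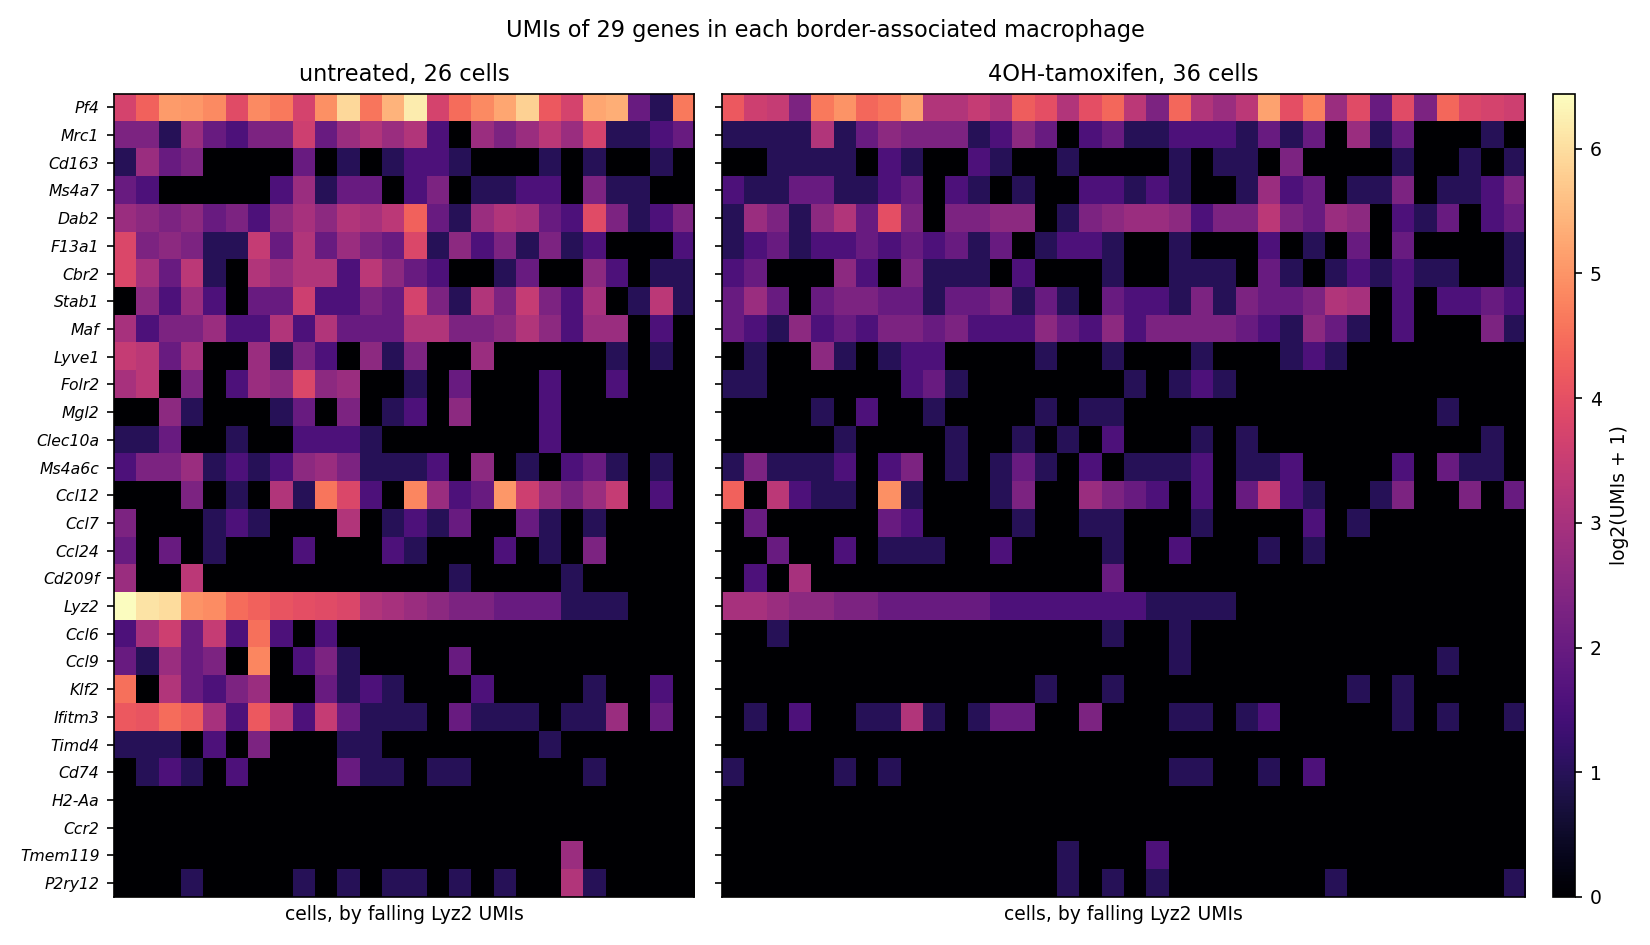
UMIs of 29 genes (rows) in each macrophage (columns), as log2 of UMIs plus 1, with the untreated cells on the left and the 4OH-tamoxifen cells on the right, each ordered by falling Lyz2. Lyz2 reaches 86 UMIs in an untreated cell and 7 in a 4OH-tamoxifen cell. In the untreated cells Ccl6 and Ccl9 lie mostly under those with high Lyz2, while the 4OH-tamoxifen cells hold only 3 and 2 UMIs of them. Pf4 is present throughout, and H2-Aa and Ccr2 are empty rows.

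The collagen and mural genes in that ranking came from few cells. Col1a1 had 49 UMIs, all in 1 untreated macrophage, and 0 in the 4OH-tamoxifen ones. Of the 9 fibroblast and pericyte markers, the untreated macrophages held 109 and 75 UMIs and the 4OH-tamoxifen macrophages 2 and 4. In the untreated library 2 cells held 131 and 46 of these UMIs. The cell with 131 had 1 UMI of Pf4 and 2 of Mrc1, and the cell with 46 also had 6 UMIs of Tmem119 and 8 of P2ry12 beside 12 of Pf4 and 6 of Mrc1. Without these 2 cells, a choice made after seeing the data, Col1a1, Col1a2, Col3a1 and Vtn were at the level where no ratio is given, and the log2 ratio of Rgs5 turned from 2.63 to -0.68. Ccl6, Ccl9, Klf2 and Lyz2 kept log2 ratios of 4.08, 3.91, 3.52 and 2.29.

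The genes furthest above in the 4OH-tamoxifen macrophages were Tril, Dst, Fgfr3, Gm3764, Clic4, Nckap1, Nfasc and Pdgfra. Several of these are known from glia: Pdgfra marks oligodendrocyte precursors, and Fgfr3 is expressed by astrocytes. With 4OH-tamoxifen each had 13 to 28 UMIs, and without it 0 to 6. In cells thinned to 2000 UMIs, the interval of the ratio held 1 for Dst (1 and 5 UMIs, 0.00440 to 1.86) and Nckap1 (2 and 9 UMIs, 0.0243 to 1.12). In microglia each was also lower in the untreated library, with ratios of 0.460 for Pdgfra to 0.689 for Tril. The astrocyte markers summed to 640 and 1252 CPM in the macrophages and 935 and 1521 CPM in microglia, although 41 of the 115 such UMIs in the 4OH-tamoxifen macrophages were in 1 cell and the median per macrophage was 2 and 1. The oligodendrocyte and precursor markers outside the rule summed to 9657 and 15240 CPM in the macrophages and 10961 and 14536 CPM in microglia. Their part in the difference between the libraries was not tested.

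**Figure D4:**
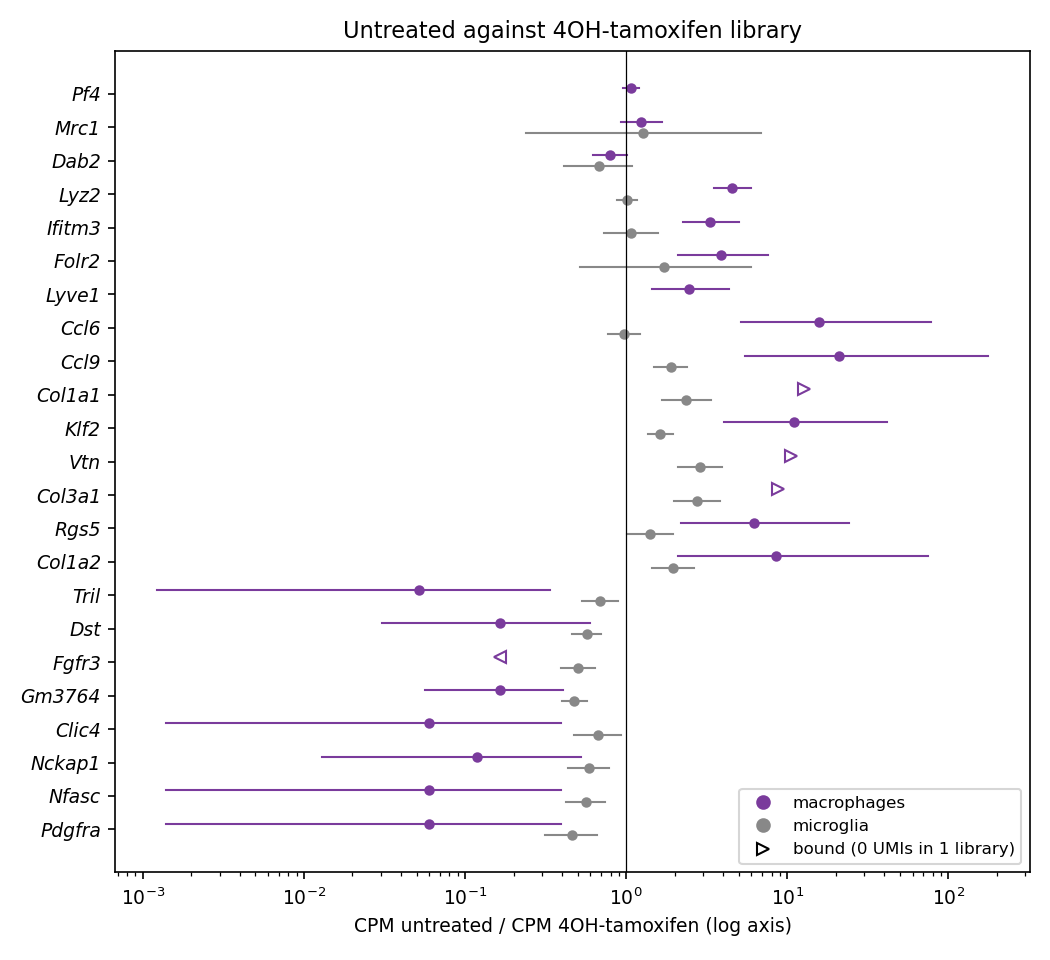
CPM in the untreated library divided by CPM in the 4OH-tamoxifen library (log axis), for macrophages (purple) and microglia (grey), with 95% counting intervals and open triangles for bounds where 1 library had 0 UMIs. Lyz2, Ccl6, Ccl9 and Klf2 lie further from 1 in macrophages than in microglia, while the 8 genes higher with 4OH-tamoxifen lie below 1 in both.

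Immediate-early genes, which respond within minutes to stimulation or tissue handling, were counted between the libraries as well. Of 12 that passed the limit in untreated macrophages, 6 were called higher there (13.4% over all genes), and 0 of 9 were called higher with 4OH-tamoxifen (14.1% over all genes). Jun was at 1019 and 348 CPM, Junb at 438 and 87.1 CPM and Jund at 690 and 283 CPM in the macrophages, and the ratios in microglia were 2.04, 2.23 and 2.14. Of the lipid genes, 2 of 6 were called higher in untreated (13.4% over all genes) and 1 of 5 higher with 4OH-tamoxifen (14.1% over all genes). Pltp, the phospholipid transfer protein, had 34 and 5 UMIs (ratio 5.26, 2.05 to 17.2, against 2.05 in microglia), Npc2 had a ratio of 2.14 (1.498 to 3.11), and the cholesterol exporter Abca1 a ratio of 0.451 (0.216 to 0.908). Apoe had a ratio of 1.29 (1.21 to 1.38) and Fabp5 of 0.793 (0.497 to 1.27).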

How the data were processed

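The authors dissociated the parafacial region of pooled mice, made 10X Genomics v2 libraries, converted reads with bcl2fastq 2.18.0.12 and counted them with Cell Ranger 2.2.0 on the mm10 reference. The deposited values are raw UMI counts per gene and barcode for 28692 genes, not normalized and with barcodes below the quality limits still in them. A barcode was kept as a cell when it had 800 genes or more, at most 20% mitochondrial UMIs and no more than 50 UMIs from hemoglobin genes. Doublets were kept, and removed with Scrublet (scanpy 1.11.5) as an alternative. UMIs were summed per library and group. Shares have exact binomial (Clopper-Pearson), CPM exact Poisson and ratios exact conditional 95% intervals, which cover counting error only. A group with 0 UMIs was set to 3 UMIs for a bound. Where both groups had 3 or fewer UMIs no ratio is given. For ranks and counts of genes, groups under 3 UMIs were set to 3. On Poisson counts simulated with known ratios, the ratio intervals held the true value for 96.1% of 1323 genes in untreated macrophages against microglia. The share was 96.7% of 1331 genes with 4OH-tamoxifen and 96.5% of 1323 between the libraries. These draws follow the model that the intervals assume, so they check the calculation and do not cover UMIs clumped in single cells. Oligodendrocytes had at least 4 UMIs of Mog and Mag and at most 2 of C1q and Csf1r. Thinning drew 2000 UMIs per cell and left out 1 untreated and 10 4OH-tamoxifen macrophages. Named genes are the rule markers, the list genes, the 15 per direction with the largest ratio to microglia and the 8 per direction between the libraries. The members and lists were chosen with earlier results of these data known. Of 281 listed genes, 279 were in the files. Gene positions came from GENCODE vM21. Results for 2 listed genes are not reported here.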

Additional observations from a re-analysis of the deposited data

Results flagged for a closer look

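The ratio of macrophages to microglia for Klf2 ran in opposite directions in the 2 libraries, at 2.35 (1.74 to 3.12) without treatment and 0.348 (0.0940 to 0.903) with 4OH-tamoxifen. The myelin gene Mbp, which had UMIs in all macrophages and microglia, did so by a small amount, at 0.910 (0.854 to 0.969) and 1.07 (1.01 to 1.13). With 1 library per condition, neither difference was tested.

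Outside the filtered cells, 6 barcodes of the 4OH-tamoxifen library met the marker rule but had fewer than 800 genes (684 to 798), with 6 to 19 UMIs of the 4 markers. In the untreated library 1 barcode did, with 9 marker UMIs and 21.2% mitochondrial UMIs.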

How the results depend on the processing

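Of 144 values of the cell counts, shares and gene counts recomputed under 13 other settings and 1 chosen after seeing the data, 132 stayed within the counting interval or within 1.5 times, and 12 moved. A minimum of 1200 genes left 17 4OH-tamoxifen macrophages and raised the genes higher there to 364. Allowing no endothelial or myelin UMIs left 20 4OH-tamoxifen macrophages (0.221% of filtered cells) and 404 such genes. At 50 CPM, 158 genes were higher in macrophages than microglia, 352 higher in untreated and 695 higher in 4OH-tamoxifen macrophages. With at least 2 UMIs per cell, Lyve1 was in 11.1% of 4OH-tamoxifen macrophages (4 of 36), and in 10 of 26 untreated ones. Class II was then in 11.5% of untreated and 2.78% of 4OH-tamoxifen macrophages. Thinning to 2000 UMIs brought class II to 16% in untreated macrophages. The cause of these moves was not tested. Of 992 gene ratios, 977 stayed within their interval, 14 moved in size and 1 changed direction, Rgs5 at -0.68 (log2) without the 2 untreated macrophages with fibroblast and pericyte UMIs. No paired analysis was possible because each condition has 1 library. Groups of 26 and 36 cells limit all shares to intervals many percentage points wide.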
